A study of Homo sapiens with 18 samples.

Results

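Aminoacyl-tRNA synthetases join each amino acid to its tRNA, and human cells carry largely separate sets of these enzymes for the cytosol and for mitochondria. Here a set list of 36 synthetase genes was followed by symbol through the deposited gene tables, out of 34912 genes, and the list was split by symbol into 16 mitochondrial genes, ending in ARS2, and 20 cytosolic genes. Cells were LNCaP, an androgen-responsive line of prostate cancer, kept for 48 h in 5% charcoal-stripped serum and then given the synthetic androgen R1881 at 10 nM, or its vehicle, 96% ethanol, for 24 h. They carried siRNA pools against NFYA (groups siNFYA R1881 and siNFYA vehicle), siRNA pools against KLF5 (siKLF5 R1881 and siKLF5 vehicle) or control siRNA (control R1881 and control vehicle). Each group had 3 libraries, except siKLF5 vehicle with 2, because its replicate 1 had no column in the deposited gene tables. All groups are a single cell line. Whether replicates came from separate cultures is not stated, and p-values therefore measure the spread between these libraries, which may be technical. NFYA makes the DNA contacts of NF-Y, which binds CCAAT, and KLF5 is a zinc-finger transcription factor.

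In the cytosol, 8 of the 20 enzymes named here (EPRS, IARS, LARS, MARS, QARS, RARS, KARS and DARS) sit together in the multisynthetase complex, in which EPRS charges both glutamate and proline. GARS and KARS also supply mitochondria with their enzyme from the same gene, and FARSA and FARSB encode the subunits of a single cytosolic phenylalanyl enzyme. Mitochondrial enzymes serve the few proteins that mitochondria translate themselves, which belong to the respiratory chain. Several cytosolic synthetase genes are textbook targets of ATF4, the factor that drives the amino acid response through a composite C/EBP and ATF element with the core TGATGNAA.

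The libraries held between 4416653 and 6872421 estimated counts. NFYA was lower in siNFYA cells by a log2 difference of -0.62 in R1881 (adjusted p = 2.37e-07) and -0.62 in vehicle (adjusted p = 4.07e-07). KLF5 was lower in siKLF5 cells by -1.15 in R1881 (adjusted p = 0.000228), and the difference of -1.08 in vehicle did not pass (adjusted p = 0.149). These are values on counts, and in TPM KLF5 overlapped between the groups in R1881, at 5.44 to 40.1 TPM in siKLF5 and 11.8 to 14.3 TPM in control cells, so that at least 1 siKLF5 library lay above every control library. Luminal prostate markers were present in all 17 libraries, while KRT5, HBB and CDH5 were at 0 in all of them and the highest of the 13 markers of other cell types was COL1A1 at 10.5 TPM. Mitochondrially encoded transcripts took 2.54% to 2.62% of the estimated counts in siNFYA R1881, 2.60% to 3.00% in siNFYA vehicle, 2.20% to 2.82% in siKLF5 R1881 and 2.46% to 2.96% in siKLF5 vehicle, against 1.33% to 1.44% in control R1881 and 1.77% to 2.07% in control vehicle. In siNFYA vehicle replicate 3 a single RNA, AC010970.1, made up 2.85% of counts, against at most 0.424% in any other library. In bulk RNA, fewer cells of a type and less RNA per cell cannot be told apart.

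Promoter windows from RefSeq (GRCh38.p14, 250 bases before to 50 after each start) matched 30 of the 36 genes, and DARS, LARS, VARS, YARS, AARS2 and VARS2 had no entry. TGATGNAA, searched on both strands, was found in 8 of them, 7 cytosolic and 1 mitochondrial. Those stretches are shown because every one of these genes was called higher with R1881 in control siRNA cells by edgeR under TMM scaling. The motif was chosen with earlier results of these data known, so its presence in genes that rose is no independent support. Capitals mark the match, which is seen in reverse complement in all but NARS and YARS2, and no match shared a base with CCAAT or GGGCGG.
GARS (chr7:30594819-30594878, + strand): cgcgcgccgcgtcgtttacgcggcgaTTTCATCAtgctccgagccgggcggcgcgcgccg
TARS (chr5:33440941-33441000, + strand): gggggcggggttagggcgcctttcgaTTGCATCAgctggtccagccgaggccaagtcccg
CARS (chr11:3057392-3057451, - strand): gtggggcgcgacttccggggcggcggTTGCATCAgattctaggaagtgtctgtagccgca
MARS (chr12:57488038-57488097, + strand): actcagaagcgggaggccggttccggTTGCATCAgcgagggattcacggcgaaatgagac
AARS (chr16:70289660-70289719, - strand): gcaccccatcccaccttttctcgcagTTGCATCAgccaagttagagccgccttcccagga
IARS (chr9:92293677-92293736, - strand): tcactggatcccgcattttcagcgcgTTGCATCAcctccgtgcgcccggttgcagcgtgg
NARS (chr18:57621789-57621848, - strand): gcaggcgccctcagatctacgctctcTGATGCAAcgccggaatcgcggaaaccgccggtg
YARS2 (chr12:32756061-32756120, - strand): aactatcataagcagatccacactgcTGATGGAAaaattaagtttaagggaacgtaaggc
TTGCATCA or its complement TGATGCAA, the form with C at the free base, stood in 6 of these stretches (TARS, CARS, MARS, AARS, IARS and NARS), and GARS and YARS2 each had another base there. The match began 33 bases before the start in GARS, 13 in IARS, 4 in MARS and 2 in CARS, and at base 3 after the start in TARS and base 15 in NARS. In AARS and YARS2 it lay farther out, 187 and 197 bases before the start. GARS, TARS and CARS each have a further RefSeq start, whose window had 0 TGATGNAA. Their distances are counted from the start whose window holds the match. A window with these letters belonged to 43.8% of the 16 cytosolic genes matched, to 7.14% of the 14 mitochondrial genes matched and to 4.46% of all 27305 genes in the promoter table. A match describes the letters of the window and is not evidence of binding.

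With R1881 in control siRNA cells, most cytosolic genes rose and most mitochondrial genes did not pass, and the difference between the sets was not itself tested. Among cytosolic genes 16 of 20 rose, led by the glycyl, threonyl, tyrosyl and tryptophanyl enzymes at about a doubling of transcript counts, and none fell. Among mitochondrial genes 4 of 16 rose (YARS2, RARS2, MARS2 and EARS2) and 2 fell (VARS2 and LARS2). In this comparison 32.2% of all 12601 genes tested were called higher and 30.8% lower at an adjusted p under 0.05 (edgeR quasi-likelihood test, Benjamini-Hochberg adjustment over all genes). The median log2 change was 0.47 over the 20 cytosolic genes and 0.01 over the 16 mitochondrial genes, against -0.01 over all genes tested. All 36 genes passed the filter on low counts, with 46 or more estimated counts in every library of the control and siNFYA table.

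Levels of these changes depend on how libraries are scaled. Changes are given on counts per 1000000 (CPM) scaled by TMM, a method that centres most genes near no change. Under plain library totals the median of all genes moved to -0.25, with 28.3% rather than 51.1% of called genes higher, and the synthetase counts became 13 higher and 4 lower among cytosolic genes and 3 higher and 9 lower among mitochondrial genes. The medians were then 0.24 for cytosolic and -0.22 for mitochondrial genes. FARSB (-0.02) and EARS2 (-0.04) turned round under library totals, and KARS (-0.26), LARS (-0.32), QARS (-0.28) and VARS (-0.21) were then called lower. The cytosolic median was above the mitochondrial median under TMM, library totals and TPM alike, the last at 0.23 against -0.15.

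**Figure D1:**
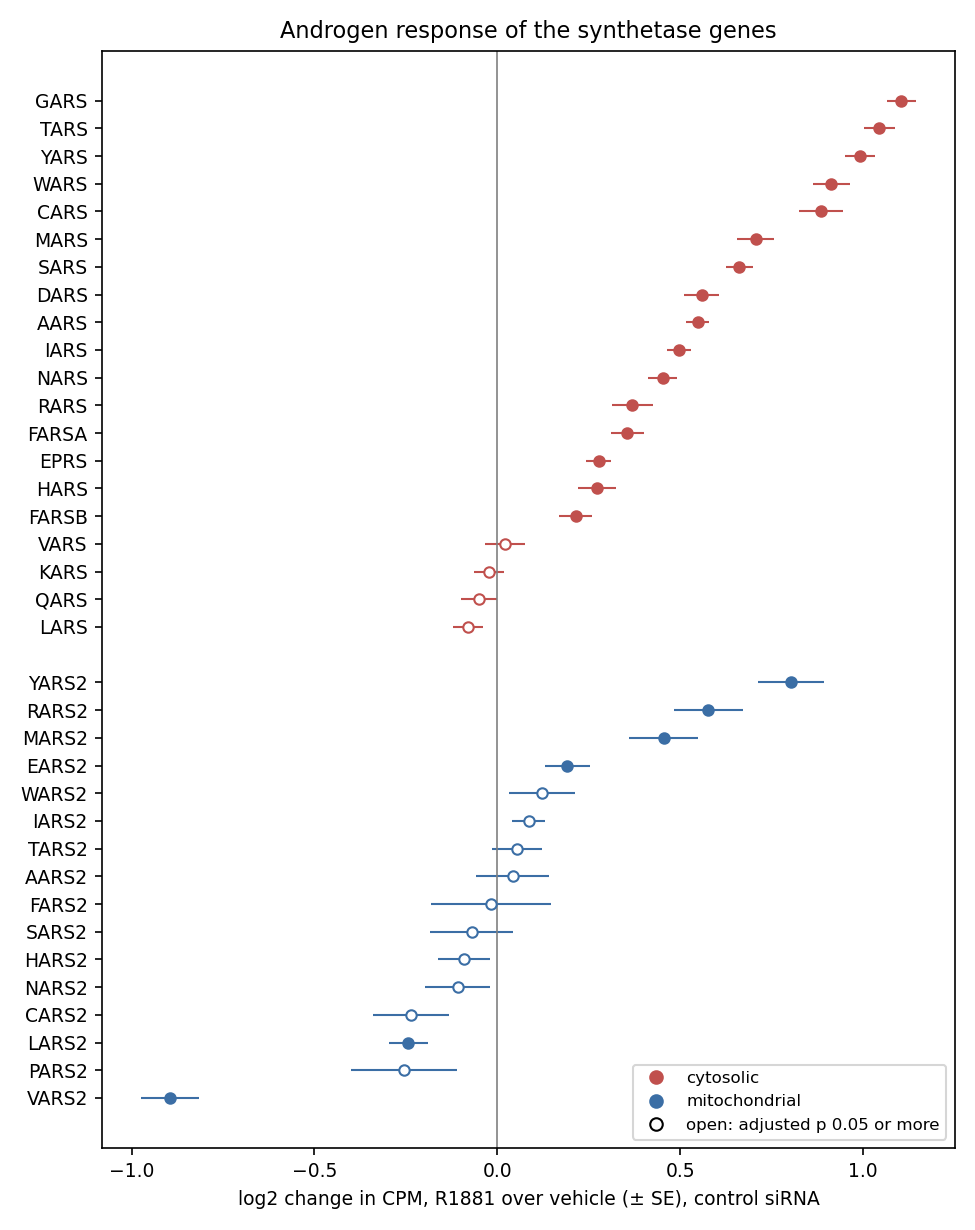
Log2 change of each synthetase gene with R1881 over vehicle in control siRNA cells (x axis, log2 CPM difference ± SE), cytosolic genes in red above mitochondrial genes in blue, filled where adjusted p is under 0.05. Cytosolic genes run from 1.11 (GARS) to -0.08 (LARS), and mitochondrial genes from 0.80 (YARS2) to -0.90 (VARS2).

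GARS (ENSG00000106105; GRCh38 chr7:30594681-30634033, + strand), which charges tRNA with glycine in both compartments, had 596, 607 and 586 CPM in control R1881 and 274, 277 and 280 CPM in control vehicle. The groups did not overlap, the log2 change was 1.11 ± 0.04 (SE), a fold of 2.15, and adjusted p was 4.67e-18. TARS (ENSG00000113407; chr5:33440696-33469539, + strand), the threonyl enzyme, had 765, 773 and 735 CPM in control R1881 and 380, 358 and 363 CPM in control vehicle, a log2 change of 1.05 ± 0.04 (adjusted p = 5.87e-17). In both genes the R1881 level was more than 2 times the vehicle level. YARS, the tyrosyl enzyme, had 336, 357 and 339 CPM in control R1881 and 172, 170 and 177 CPM in control vehicle, a log2 change of 0.99 ± 0.04 (adjusted p = 7.77e-17). WARS, the tryptophanyl enzyme, which interferon also induces, had 240, 242 and 223 CPM in control R1881 and 124, 124 and 126 CPM in control vehicle, a log2 change of 0.91 ± 0.05 (adjusted p = 3.37e-14). In each of the 4 genes the lowest R1881 library was well above the highest vehicle library.

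The other 12 cytosolic genes that rose spanned a wide range. CARS (cysteine) changed by 0.89, MARS (methionine) by 0.71, SARS (serine) by 0.66, DARS (aspartate) by 0.56, AARS (alanine) by 0.55 and IARS (isoleucine) by 0.50 on the log2 scale. Smaller rises were those of NARS (asparagine, 0.45), RARS (arginine, 0.37), FARSA (0.36), EPRS (0.28), HARS (histidine, 0.27) and FARSB (0.21), with adjusted p from 4.6e-14 for SARS to 0.000198 for FARSB. Both subunits of the phenylalanyl enzyme were thus called higher by edgeR under TMM. FARSA, its catalytic subunit, averaged 160 ± 7.75 CPM in control R1881 and 125 ± 3.29 CPM in control vehicle (SD, n = 3 each). On log2(TPM + 1) with limma, NARS (adjusted p = 0.256), RARS (adjusted p = 0.128), HARS (adjusted p = 0.114) and FARSB (adjusted p = 0.467) were not called. Under library totals EPRS (0.04, edgeR, adjusted p = 0.294), HARS and FARSB were not called.

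The 4 cytosolic genes that did not pass were VARS (valine), KARS (lysine), QARS (glutamine) and LARS (leucine). KARS had 232, 233 and 232 CPM in control R1881 and 237, 237 and 234 CPM in control vehicle, a log2 change of -0.02 ± 0.04 (adjusted p = 0.656), although its libraries did not overlap. LARS changed by -0.08 ± 0.04 (adjusted p = 0.0864), QARS by -0.05 ± 0.05 (adjusted p = 0.404) and VARS by 0.02 ± 0.06 (adjusted p = 0.742). KARS, QARS and LARS all belong to the multisynthetase complex. Of the complex enzymes 5 of 8 rose with a median of 0.32, and of the other cytosolic genes 11 of 12 rose with a median of 0.61. That grouping was made with these results known, and the difference between the 2 groups was not tested.

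Mitochondrial genes were less abundant and less uniform. VARS2 (ENSG00000137411; chr6:30908242-30926459, + strand), the mitochondrial valyl enzyme, had 32.4, 30.7 and 38.4 CPM in control R1881 and 59.7, 60.7 and 68.2 CPM in control vehicle, a log2 change of -0.90 ± 0.08 (adjusted p = 3.32e-10). It had the largest fall of the 36 genes in that comparison. YARS2, the mitochondrial tyrosyl enzyme, had 38.9, 38.5 and 33.9 CPM in control R1881 and 20.1, 21.2 and 22.4 CPM in control vehicle, a log2 change of 0.80 ± 0.09 (adjusted p = 2.58e-08). RARS2, the mitochondrial arginyl enzyme, had 35.6, 36.9 and 35.6 CPM in control R1881 and 24.6, 21.7 and 26.3 CPM in control vehicle, a log2 change of 0.58 ± 0.09 (adjusted p = 8.59e-06). MARS2, the mitochondrial methionyl enzyme, had 34.3, 34.2 and 34.5 CPM in control R1881 and 26.4, 22.4 and 26.4 CPM in control vehicle, a log2 change of 0.46 ± 0.10 (adjusted p = 0.000184). On log2(TPM + 1) with limma MARS2 was not called (0.28, adjusted p = 0.0526). The R1881 and vehicle libraries did not overlap in any of these 4 genes. EARS2 (glutamate) rose by 0.19 (adjusted p = 0.00907), and LARS2 (leucine) fell by 0.24 (adjusted p = 0.00034).

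The 10 mitochondrial genes that did not pass were AARS2, CARS2, FARS2, HARS2, IARS2, NARS2, PARS2, SARS2, TARS2 and WARS2, with log2 changes from -0.25 for PARS2 to 0.12 for WARS2. CARS2, the cysteinyl enzyme, came nearest, at 24.3, 33.1 and 33.7 CPM in control R1881 and 32.1, 36.9 and 38.3 CPM in control vehicle, with a log2 change of -0.24 ± 0.10 (adjusted p = 0.052). Its libraries overlapped between the groups. FARS2 and PARS2, which had the lowest CPM of the 36 genes, averaged 12.1 ± 1.42 and 10.8 ± 1.58 CPM in control R1881, and their SE of 0.17 and 0.14 on the log2 scale was the widest of the set.

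Amino acid by amino acid, the cytosolic change stood above the mitochondrial one in 16 of 17 pairs. The exception was arginine, with 0.37 for RARS and 0.58 for RARS2. The gap was widest for cysteine, at 0.89 for CARS and -0.24 for CARS2, and for threonine, at 1.05 for TARS and 0.05 for TARS2. Tyrosine was the amino acid for which both enzymes rose most, at 0.99 for YARS and 0.80 for YARS2. For valine and leucine the cytosolic enzyme did not pass and the mitochondrial enzyme fell.

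**Figure D2:**
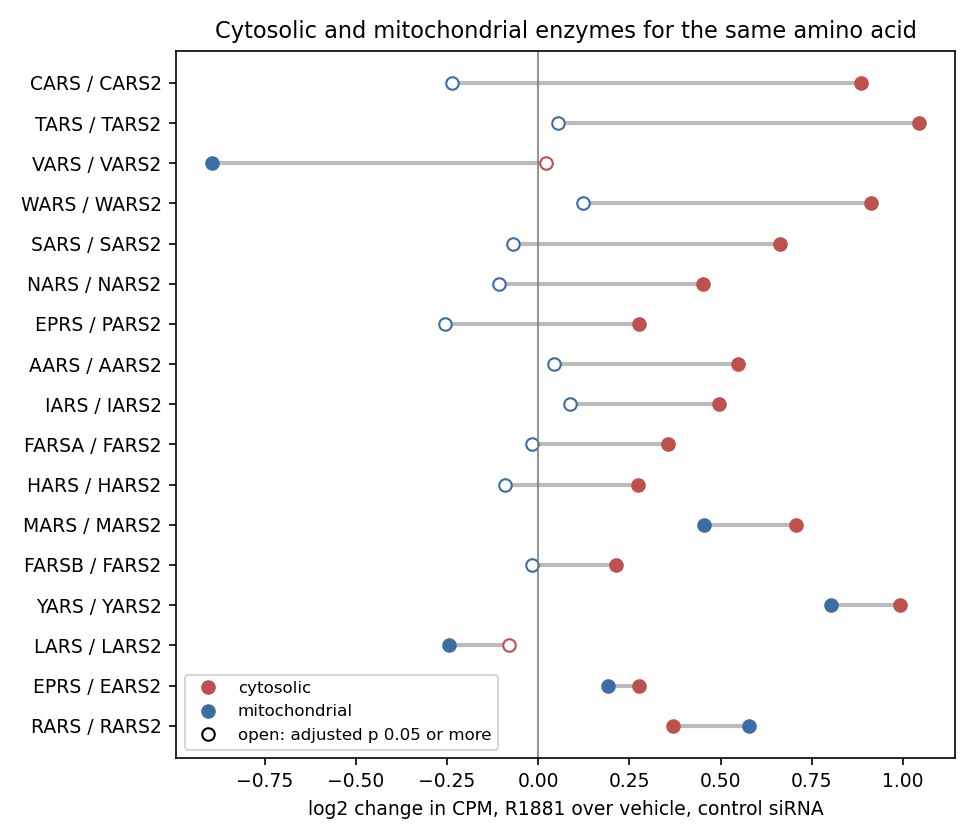
Log2 change with R1881 over vehicle in control siRNA cells (x axis) for the cytosolic (red) and mitochondrial (blue) enzyme of the same amino acid, 1 pair per row, filled where adjusted p is under 0.05. EPRS is paired with both EARS2 and PARS2, and FARS2 with both FARSA and FARSB. The red point lies to the right in 16 of 17 pairs, all but RARS and RARS2.

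Compared per transcript length, in TPM, a transcript abundance corrected for length and library size, every cytosolic enzyme was more abundant than its mitochondrial counterpart in control vehicle, by 1.20 times for CARS over CARS2 to 22.3 times for AARS over AARS2, with a median of 5.26. The 5 most abundant in control R1881 were TARS (503 ± 47.8 TPM), GARS (351 ± 6.13), SARS (332 ± 5.35), NARS (330 ± 11.1) and AARS (311 ± 3.12), where the values of SARS and NARS lay within 1 SD of each other. In control vehicle the order began with NARS (301 ± 38.3 TPM), TARS (278 ± 25.6), AARS (240 ± 1.87) and SARS (238 ± 8.03), where NARS and TARS lay within the SD of NARS, and AARS and SARS within the SD of SARS. GARS was at rank 2 in control R1881 and at rank 6 in control vehicle. IARS2 was the most abundant mitochondrial enzyme (105 ± 4.08 TPM in R1881 and 110 ± 6.61 TPM in vehicle), and PARS2 (7.08 ± 1.03 and 9.47 ± 0.43 TPM) and AARS2 (9.87 ± 1.40 and 10.7 ± 0.34 TPM) the least abundant. VARS2 had 20.4 ± 4.25 TPM in control R1881 and 41.9 ± 3.20 TPM in control vehicle, which put it at rank 31 in control R1881 and rank 22 in control vehicle.

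Summed over the 20 cytosolic genes, the level was 4012 ± 84.7 TPM in control R1881 and 3155 ± 61.4 TPM in control vehicle. Summed over the 16 mitochondrial genes it was 485 ± 2.34 TPM in control R1881 and 519 ± 23.3 TPM in control vehicle. The R1881 and vehicle libraries did not overlap in either sum. The ratio of the sums was 8.10 ± 0.37 in siNFYA R1881 and 5.95 ± 0.05 in siNFYA vehicle, 8.27 ± 0.43 in siKLF5 R1881 and 6.06 ± 0.33 in siKLF5 vehicle (n = 2), and 8.28 ± 0.14 in control R1881 and 6.08 ± 0.23 in control vehicle. Every R1881 library had a ratio of at least 7.71, and no vehicle library exceeded 6.35.

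**Figure D3:**
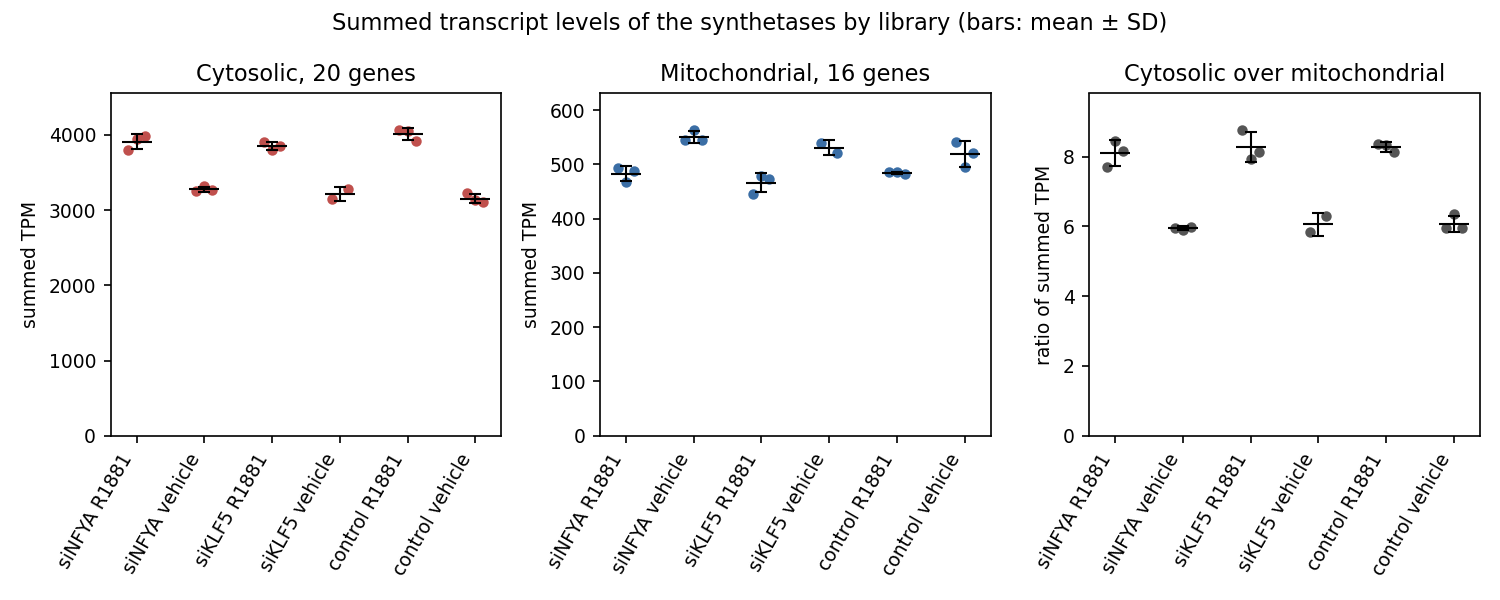
Summed TPM of the 20 cytosolic genes, of the 16 mitochondrial genes, and the ratio of these sums (y axes) in each library of the 6 groups (x axis), with bars for mean ± SD. R1881 groups stand above their vehicle groups in the cytosolic sum and the ratio, which is between 7.71 and 8.76 in R1881 libraries and between 5.83 and 6.35 in vehicle libraries.

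The same R1881 response was measured in the knockdown cells, with a vehicle group of their own. In siNFYA cells 16 of 20 cytosolic genes rose and 2 fell (LARS, -0.17, and QARS, -0.12, which was not called without any 1 of 5 of the 6 libraries, all but R1881 replicate 1, and was at -0.07 without R1881 replicate 3), while 5 of 16 mitochondrial genes rose and 4 fell, against 31.2% of all genes higher and 31% lower. The medians were 0.35 for cytosolic, -0.08 for mitochondrial and -0.02 for all genes. In siKLF5 cells 16 cytosolic genes rose and LARS fell (-0.22), while 4 mitochondrial genes rose and 3 fell, against 30.7% of all genes higher and 28.4% lower. The medians were 0.42, -0.01 and -0.01 in the same order. Under library totals the cytosolic counts were 11 higher and 4 lower in siNFYA and 12 higher and 4 lower in siKLF5 cells, and the mitochondrial counts 2 higher and 10 lower, and 3 higher and 8 lower.

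TARS had 663, 758 and 714 CPM in siNFYA R1881 and 383, 372 and 362 CPM in siNFYA vehicle, a log2 change of 0.93 ± 0.04 (adjusted p = 9.64e-16). In siKLF5 R1881 it had 620, 603 and 596 CPM, against 286 and 324 CPM in siKLF5 vehicle, a log2 change of 0.99 ± 0.05 (adjusted p = 1.94e-14). WARS had 215, 247 and 244 CPM in siNFYA R1881 and 129, 136 and 128 CPM in siNFYA vehicle, and YARS 325, 360 and 345 CPM and 195, 199 and 201 CPM in those groups. R1881 and vehicle libraries stayed apart in all of these. The log2 changes of WARS were 0.84 in siNFYA and 0.81 in siKLF5 cells, and those of YARS were 0.79 and 0.86.

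VARS2 had 38.2, 39.5 and 38.0 CPM in siNFYA R1881 and 73.2, 70.3 and 72.7 CPM in siNFYA vehicle, a log2 change of -0.90 ± 0.08 (adjusted p = 2.66e-10). In siKLF5 R1881 it had 44.5, 32.4 and 34.6 CPM, against 72.0 and 64.8 CPM in siKLF5 vehicle, a log2 change of -0.88 ± 0.10 (adjusted p = 1.58e-07). VARS2 thus fell under all 3 siRNAs, and neither interaction passed for it (adjusted p = 0.996 with siNFYA and 0.988 with siKLF5). RARS2 rose by 0.69 in siNFYA and 0.80 in siKLF5 cells, YARS2 by 0.52 and 0.61, and MARS2 by 0.43 and 0.34. The change of YARS2 in siKLF5 cells was 0.38 without vehicle replicate 3, and 0.38 and not called on log2(TPM + 1) (adjusted p = 0.188). CARS2, at 33.4, 27.9 and 32.2 CPM in siNFYA R1881 and 42.7, 41.7 and 42.5 CPM in siNFYA vehicle, fell by 0.44 (adjusted p = 0.000728). AARS2 fell by 0.35 in siNFYA cells (adjusted p = 0.00409) and SARS2 by 0.37 in siKLF5 cells (adjusted p = 0.0258). SARS2 was not called there by DESeq2 (adjusted p = 0.093), nor without vehicle replicate 3 (-0.21) or R1881 replicate 2 (-0.22). WARS2, the mitochondrial tryptophanyl enzyme, had 37.2, 34.8 and 41.1 CPM in siKLF5 R1881 and 26.5 and 28.2 CPM in siKLF5 vehicle, a log2 change of 0.46 ± 0.09 (adjusted p = 0.000204), not called on log2(TPM + 1) (adjusted p = 0.167). LARS2 fell in both, by 0.27 in siNFYA and 0.17 in siKLF5 cells, and WARS2 (0.29) and IARS2 (0.13) also passed in siNFYA cells. In siKLF5 cells LARS2 was not called without vehicle replicate 2 (-0.11), R1881 replicate 1 (-0.16) or R1881 replicate 2 (-0.16). In siNFYA cells WARS2 was not called without replicate 2 of vehicle (0.22) or of R1881 (0.20), nor IARS2 without R1881 replicate 3 (0.10). HARS in siKLF5 cells (0.17) was not called without vehicle replicate 2 (0.13), R1881 replicate 2 (0.15) or R1881 replicate 3 (0.15). Directions of EPRS and HARS in siKLF5 cells, and of EPRS and IARS2 in siNFYA cells, turned round under library totals and on TPM.

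**Figure D4:**
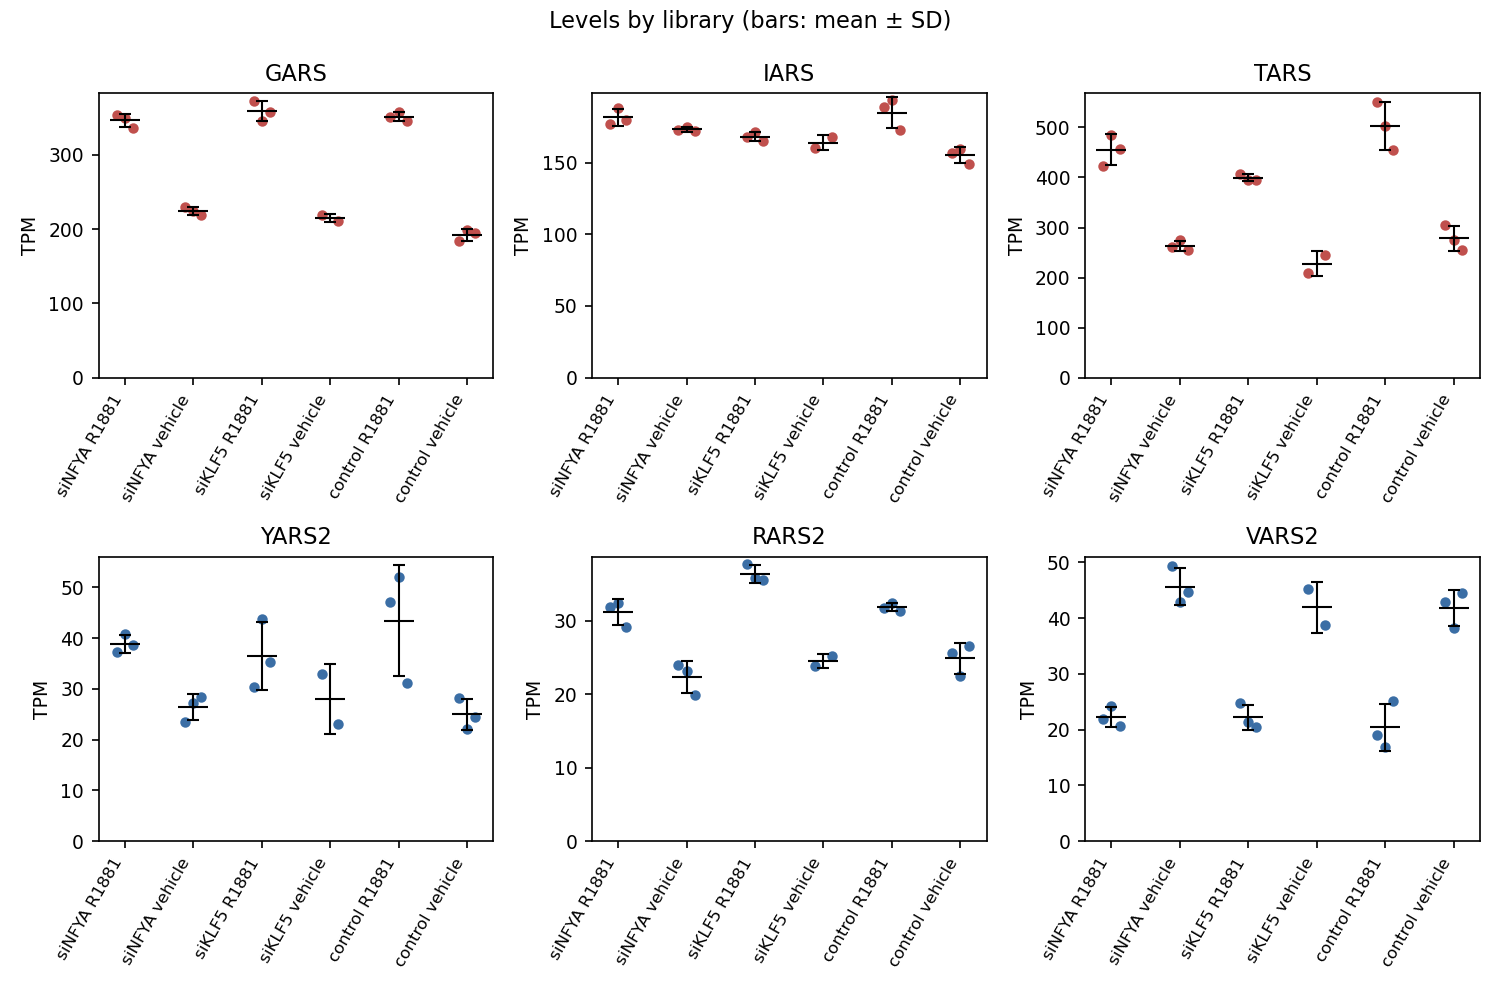
TPM (y axes) of GARS, IARS, TARS, YARS2, RARS2 and VARS2 in each library of the 6 groups (x axes), with bars for mean ± SD. GARS, TARS and RARS2 lie higher and VARS2 lower in each R1881 group than in its own vehicle group, and TARS is lowest in the siKLF5 groups within each treatment.

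With siNFYA in vehicle, 9 of the 36 genes were called higher and none lower by edgeR, and 3 higher with limma on log2(TPM + 1). The calls by edgeR were 8 of 20 cytosolic genes and 1 of 16 mitochondrial genes, beside 6.67% of all genes higher and 6.79% lower. Median log2 changes were 0.10 for cytosolic, 0.12 for mitochondrial and -0.00143 for all genes, and the difference between the sets was not tested. CARS had 84.0, 81.8 and 92.6 CPM in siNFYA vehicle and 62.5, 70.4 and 70.2 CPM in control vehicle, a log2 change of 0.34 ± 0.06 (adjusted p = 0.000842). GARS had 349, 339 and 334 CPM in siNFYA vehicle and 274, 277 and 280 CPM in control vehicle, a log2 change of 0.30 ± 0.04 (adjusted p = 2.81e-05). The libraries of the groups stood apart in both genes. MARS had 228, 228 and 217 CPM in siNFYA vehicle and 185, 185 and 198 CPM in control vehicle, a log2 change of 0.25 ± 0.05 (adjusted p = 0.00303). IARS had 381, 386 and 387 CPM in siNFYA vehicle and 332, 328 and 333 CPM in control vehicle, a log2 change of 0.22 ± 0.03 (adjusted p = 0.000131). YARS (0.20), FARSA (0.18), LARS (0.15) and AARS (0.13) passed with smaller changes. LARS was not called without replicate 2 or 3 of either group (0.12 to 0.14), FARSA without control vehicle replicate 2 (0.16) and AARS without siNFYA vehicle replicate 3 (0.10). AARS2, the mitochondrial alanyl enzyme, had 32.7, 30.1 and 34.0 CPM in siNFYA vehicle and 25.1, 25.7 and 24.2 CPM in control vehicle, a log2 change of 0.36 ± 0.10 (adjusted p = 0.0127), which DESeq2 did not call (adjusted p = 0.0876). Without siNFYA vehicle replicate 3, which held the high share of AC010970.1, 6 cytosolic genes and 1 mitochondrial gene were called higher. The mitochondrially encoded share was also higher in every siNFYA library, and in every siKLF5 library, than in any control library. Its part in these results was not tested.

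In R1881 the same contrast gave 1 gene, beside 5.97% of all genes called in either direction. FARSA had 183, 174 and 176 CPM in siNFYA R1881 and 168, 159 and 153 CPM in control R1881, a log2 change of 0.15 ± 0.05 (adjusted p = 0.0471). That call was lost with DESeq2 (adjusted p = 0.192) and without any 1 of 5 of the 6 libraries (all but control R1881 replicate 1). GARS, at 552, 627 and 591 CPM in siNFYA R1881 and 596, 607 and 586 CPM in control R1881, overlapped between the groups, with a log2 change of -0.02 ± 0.04 (adjusted p = 0.884).

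The interaction of siNFYA with R1881 asks whether the R1881 change itself differed between siNFYA and control siRNA cells. GARS and IARS passed, both with a smaller R1881 change in siNFYA cells, beside 0.738% of all genes called in either direction. GARS changed by 0.79 in siNFYA and 1.11 in control siRNA cells, an interaction of -0.31 ± 0.06 on the log2 scale (adjusted p = 0.00536). IARS had 443, 462 and 456 CPM in siNFYA R1881, against 381, 386 and 387 CPM in siNFYA vehicle, and 459, 486 and 456 CPM in control R1881, against 332, 328 and 333 CPM in control vehicle. Its R1881 change was 0.24 in siNFYA and 0.50 in control siRNA cells, an interaction of -0.26 ± 0.05 (adjusted p = 0.00674). AARS (-0.19, adjusted p = 0.0508), MARS (-0.29, adjusted p = 0.0607), YARS (-0.20, adjusted p = 0.121) and CARS (-0.26, adjusted p = 0.169) did not pass. Neither GARS nor IARS was called on log2(TPM + 1) with limma (adjusted p = 0.259 and 0.459), and IARS was not called without control R1881 replicate 2 (adjusted p = 0.0506). These contrasts share their control libraries, so the values are side by side only.

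With siKLF5, edgeR called TARS lower in both treatments and GARS higher in vehicle. In vehicle the difference in KLF5 itself did not pass (-1.08, edgeR, adjusted p = 0.149). Every siKLF5 library had a higher mitochondrially encoded share than any control library, and the part of that share in these results was not tested. TARS had 620, 603 and 596 CPM in siKLF5 R1881 and 759, 768 and 727 CPM in control R1881, a log2 change of -0.31 ± 0.04 (adjusted p = 7.81e-05), with 1.38% of all genes called in either direction. In vehicle it had 286 and 324 CPM in siKLF5 and 379, 358 and 363 CPM in control cells, a log2 change of -0.27 ± 0.05 (adjusted p = 0.00435), with 1.33% of all genes called. No siKLF5 library reached the lowest control library of its treatment. On log2(TPM + 1) with limma neither difference passed (adjusted p = 0.179 in R1881 and 0.38 in vehicle). GARS had 303 and 315 CPM in siKLF5 vehicle and 274, 277 and 280 CPM in control vehicle, a log2 change of 0.16 ± 0.04 (adjusted p = 0.0491), which DESeq2 did not call (adjusted p = 0.16). The GARS call was also lost without any 1 of 4 of the 5 libraries, siKLF5 vehicle replicate 2 being the exception. No synthetase passed the interaction of siKLF5 with R1881 by edgeR or DESeq2, where edgeR called 0.0157% of all genes.

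**Figure D5:**
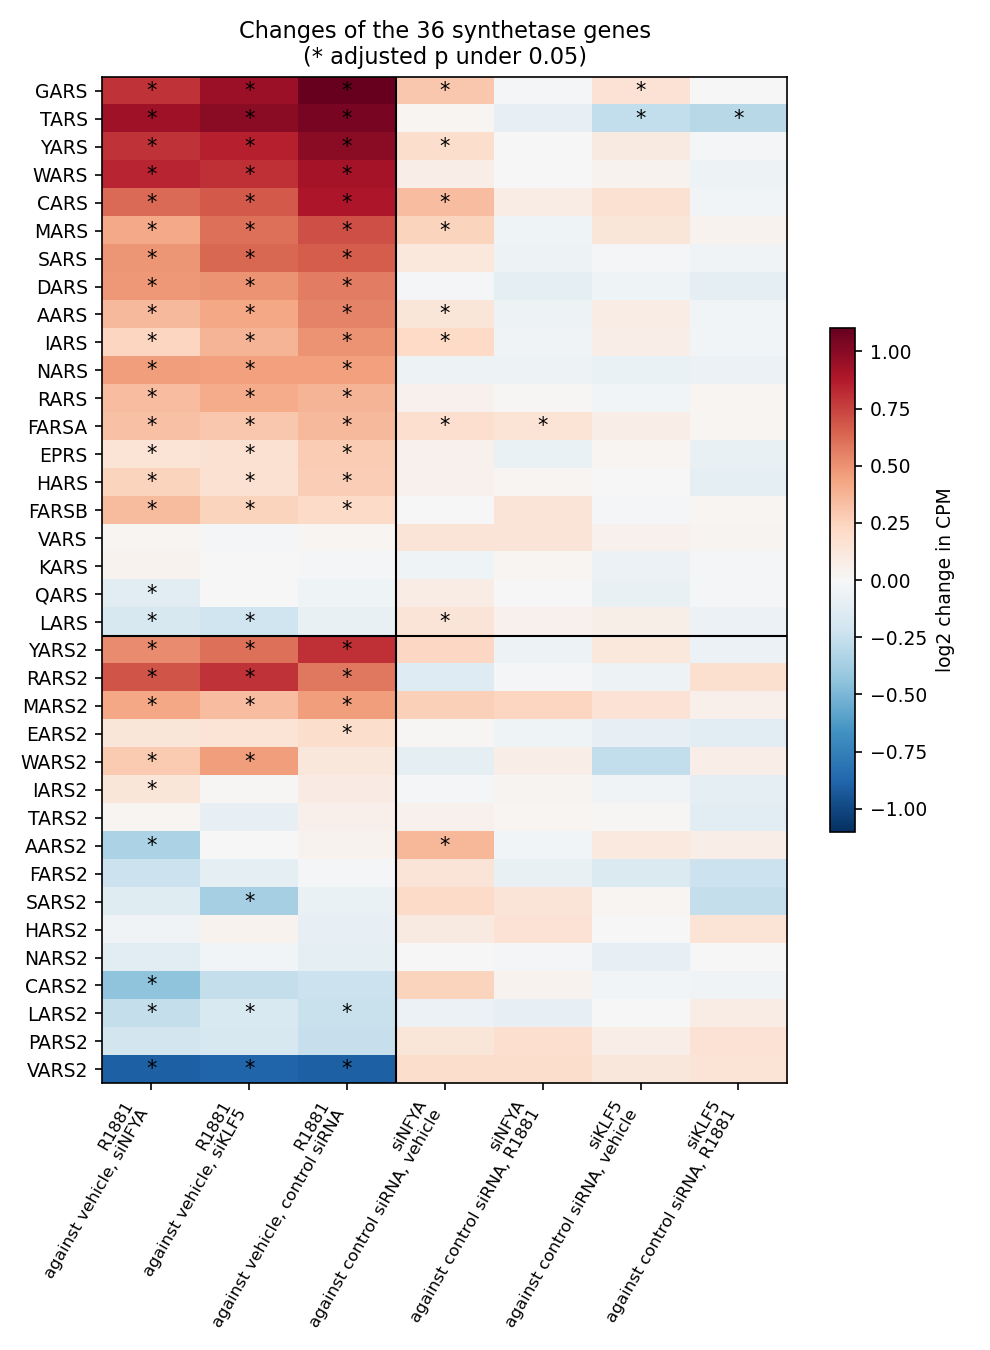
Log2 change (colour, red higher and blue lower) of the 36 genes (rows, cytosolic above the line and mitochondrial below it) in 7 comparisons (columns), with an asterisk where adjusted p is under 0.05. The 3 R1881 columns on the left carry most of the calls, and the siNFYA and siKLF5 columns on the right carry 9, 1, 2 and 1.

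Promoter windows of all matched genes, whatever their R1881 change, were compared for the letters they hold. All 8 genes with TGATGNAA in a window rose in control siRNA cells, with log2 changes from 0.45 to 1.11. Of the 22 genes whose windows lack it, 10 rose and 1 fell, with changes from -0.25 to 0.91. Several strong risers, such as WARS and SARS, were therefore without the letters. The sets differ in make-up, since 7 of the 8 genes with the letters are cytosolic and 13 of the 22 without them mitochondrial. Within the cytosolic genes 7 of 7 with the letters rose (median 0.71) and 7 of 9 without them (median 0.28). Within the mitochondrial genes the 1 gene with them rose, as did 3 of 13 without them. No difference between these sets was tested. CCAAT, the letters NF-Y binds, was present on either strand in 43.8% of matched cytosolic and 64.3% of matched mitochondrial genes, against 39.7% of all genes. GGGCGG, a GC box of the kind that SP and KLF proteins recognise, was present in 75% of cytosolic and 78.6% of mitochondrial genes, against 48.3% of all genes. With siNFYA in vehicle the median change was 0.08 over the 16 genes with CCAAT, of which 3 were called higher, and 0.08 over the 14 genes without it, of which 3 were called higher.

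SARS2, the mitochondrial seryl enzyme, and CARS2 had 4 CCAAT each in a window, the most of any synthetase. In CARS2 they lay only in the window farther upstream, and its other window had 0 CCAAT and 6 GGGCGG. SARS2 is shown with each CCAAT, here read as ATTGG on the other strand, in capitals.
SARS2 (chr19:38930714-38931013, - strand): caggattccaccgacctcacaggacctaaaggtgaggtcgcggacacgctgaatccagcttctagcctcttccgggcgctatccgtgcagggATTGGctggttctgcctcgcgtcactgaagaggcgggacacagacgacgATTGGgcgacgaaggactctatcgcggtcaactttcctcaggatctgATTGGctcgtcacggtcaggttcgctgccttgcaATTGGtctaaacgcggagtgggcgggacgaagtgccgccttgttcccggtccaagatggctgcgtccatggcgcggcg
The matches began 158, 109, 62 and 28 bases before the start. SARS2 had 24.4, 27.1 and 22.4 CPM in siNFYA vehicle and 21.9, 19.5 and 22.8 CPM in control vehicle, overlapping groups with a log2 change of 0.21 ± 0.11 (adjusted p = 0.22). In R1881 it had 25.7, 22.2 and 19.5 CPM in siNFYA and 18.9, 20.4 and 22.0 CPM in control cells, and the change of 0.14 ± 0.12 did not pass (adjusted p = 0.555).

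HARS and HARS2, the cytosolic and mitochondrial histidyl enzymes, lie head to head with RefSeq starts 85 bases apart, and the overlap of their windows is shown because they share this region.
HARS and HARS2 (chr5:140691321-140691504, + strand): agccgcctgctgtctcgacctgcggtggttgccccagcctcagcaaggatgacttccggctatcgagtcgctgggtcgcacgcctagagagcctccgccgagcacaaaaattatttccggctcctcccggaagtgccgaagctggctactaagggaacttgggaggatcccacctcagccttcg
HARS had 111, 112 and 111 CPM in control R1881 and 97.2, 90.7 and 88.9 CPM in control vehicle, and it rose (0.27, adjusted p = 6.91e-05), a call that was lost under library totals (0.04, adjusted p = 0.522) and on log2(TPM + 1) (0.11, adjusted p = 0.114). HARS2 had 51.7, 58.4 and 47.3 CPM in control R1881 and 57.6, 53.1 and 57.3 CPM in control vehicle, groups that overlapped (-0.09, adjusted p = 0.273). The 2 genes are close copies of each other, so the split of reads between them in the estimated counts is uncertain, and the difference between their changes was not tested. Head-to-head neighbours within 1000 bases in GENCODE v29 were tested for 10 members, HARS and HARS2 counted from both sides, and the signs were the same in 5. No difference between neighbours was tested. TERF2IP rose by 0.65 beside KARS (-0.02), MRPS12 by 0.40 beside SARS2 (-0.07) and UBFD1 by 0.58 beside EARS2 (0.19). DDX19B (0.09), WDR25 (0.18) and ORC3 (-0.03) did not pass beside AARS (0.55), WARS (0.91) and RARS2 (0.58), each of which rose. ING1 (-0.09) beside CARS2 (-0.24) and LYRM4 (-0.12) beside FARS2 (-0.02) did not pass, and neither did their synthetase.

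Estimates per transcript show which RNA forms carried these levels. In TPM, the coding transcripts of all 22 genes called in control siRNA cells had a mean change of the same sign as the gene's change in the edgeR test. For EARS2, the whole gene in TPM had the other sign (-0.03, and 0.03 for its coding transcripts). KARS makes a cytosolic form and, by alternative splicing, a mitochondrial form. The mitochondrial form had 13.6 ± 2.12 TPM in control R1881 and 16.5 ± 1.40 TPM in control vehicle, overlapping groups, and the cytosolic form 157 ± 1.19 TPM and 177 ± 2.59 TPM in those groups. Coding transcripts took 98.9% of AARS and 97% of GARS in control R1881, and 98% and 91.5% in control vehicle. For QARS they took 52.7% in control R1881 and 48.8% in control vehicle, the rest lying largely in transcripts annotated as retained introns. For TARS the shares were 64.5% and 67.9%, and a transcript annotated for nonsense-mediated decay (ENST00000507716) held 22.3% of TARS in R1881 and 21.1% in vehicle. For YARS2 they were 54.1% and 64.2%, where the coding transcript had 23.5 ± 0.66 TPM in R1881 and 16.0 ± 1.54 TPM in vehicle. CARS2 showed 61.5% and 81.9%, with coding transcripts at 21.2 ± 4.59 TPM in R1881 and 31.3 ± 3.25 TPM in vehicle.

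Genes that act with the synthetases were described from 5 lists, each given as its calls with R1881 in control siRNA cells. Of all genes tested there, 32.2% were called higher and 30.8% lower, and no list was tested against that share. Of 15 synthetase partners, 2 rose, XPOT (0.39), which exports tRNA from the nucleus, and AIMP1 (0.26), a scaffold of the multisynthetase complex. In that list 5 fell, TARSL2 (-1.77), a cytosolic threonyl enzyme related to TARS, SEPSECS (-0.24) of selenocysteine synthesis, the deacylase DTD2 (-0.29) and the elongation factors EEF2 (-0.15) and EEF1A1 (-0.07), and the list's median was -0.07. Of 23 genes for mitochondrial tRNA and translation factors, 2 rose, the elongation factor GFM1 (1.48) and the tRNA modifier TRIT1 (0.26), and 8 fell, among them TRNT1 (-0.57), which adds the CCA end of tRNA, and the release factor MTRF1 (-0.60), with a median of -0.13. TARSL2 is a synthetase outside the list of 36 genes.

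Amino acid response genes had the largest median change of the lists, all of which were chosen with earlier results of these data known. No difference between lists was tested, and the counts are under TMM. Of 32 tested, 27 rose and 1 fell (SLC7A5, -0.86), with a median of 0.72. They included ATF4 itself (0.72), the transporters SLC1A5 (1.80) and SLC38A2 (1.35), the glutathione-degrading enzyme CHAC1 (1.51) and asparagine synthetase ASNS (0.62), while DDIT3 (0.12), SESN2 (0.03), PHGDH (0.05) and ATF5 (0.04) did not pass. Among the 4 eIF2 kinases, which start that response, EIF2AK3 rose (1.17). EIF2AK4, the kinase that senses uncharged tRNA, changed by 0.10 and did not pass. These are transcript levels, and the activity of the kinases was not measured. Of 13 interferon-response genes tested, 1 rose (ISG20, 0.98) and 6 fell, among them IRF1 (-1.91) and MX1 (-0.82), with a median of -0.33. WARS rose, and any link of that rise to these genes was not tested.

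With siNFYA in vehicle, 21 of the 32 amino acid response genes were called higher and none lower, beside 6.67% and 6.79% of all genes, with a median of 0.25. That list was chosen with earlier results of these data known, and its difference from all genes was not tested. In the interaction of siNFYA with R1881, 13 of the 32 were called lower, beside 0.738% of all genes called in either direction, among them SLC7A11 (-0.52), DDIT4 (-0.48), MTHFD2 (-0.42) and PSAT1 (-0.35), and SLC38A2 was called higher (0.29). With limma on log2(TPM + 1), 0 genes of the whole table were called lower and 1 higher in that interaction, against 50 lower and 43 higher with edgeR and 25 lower and 32 higher with DESeq2. XPOT was the 1 synthetase partner called there (-0.32). Of the synthetase partners, 1 was called higher and 1 lower with siNFYA in vehicle, as were 1 and 1 of the mitochondrial factors, and no interferon gene was called. With siKLF5 in vehicle, 4 amino acid response genes were called higher and none lower, beside 1.33% of all genes called in either direction.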

How the data were processed

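RNA of LNCaP cells was sequenced from libraries made with a directional kit, per the labels. FastQC, Trimmomatic, kallisto, DESeq2 and GRCh38 are named in the submitters' processing notes, and their versions and the strand setting were not given in the sources used here. Estimated counts come from the deposited gene tables. Other deposited tables join, for each gene or transcript, an estimated count, a TPM value and an unnamed number, which was not used. One count table holds the control and siNFYA groups (12 libraries) and the other the control and siKLF5 groups (11 libraries). Their control columns are identical, and each table was fitted by itself.

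Estimated counts were rounded, filtered with filterByExpr (12601 and 12733 genes left), scaled by TMM and fitted in R 4.3.3 by edgeR 4.0.16 (quasi-likelihood test), with 1 coefficient per group and Benjamini-Hochberg adjustment over all genes (threshold 0.05). CPM of a gene are comparable within a table only. The deposited TPM were used for levels between genes. Alternatives were library totals, no filter, DESeq2 1.42.0, limma 3.58.1 on log2(TPM + 1) and log2(TPM + 0.5), the compared groups alone and leaving out each replicate. A fit of the control cells in the siKLF5 table was added after seeing the data. The edgeR steps were also tested on simulated data. Further software was Python 3.11.15, matplotlib 3.10.9 for figures and pandas 2.3.3 for tables.

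Members and lists were chosen with earlier results of these data known. The multisynthetase complex grouping and the promoter motifs were chosen in the same way. Per-library values are given for the 4 cytosolic and 4 mitochondrial members with the largest change among those passing each comparison, and for others where a sentence needs them.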

Additional observations from a re-analysis of the deposited data

Results flagged for a closer look

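The R1881 effect on GARS differed between siNFYA and control siRNA cells by a test of the interaction, at -0.31 on the log2 scale (edgeR, adjusted p = 0.00536), with a smaller rise in siNFYA cells (0.79, against 1.11 in control siRNA cells). The GARS level in R1881 was 590 ± 37.8 CPM in siNFYA and 596 ± 10.9 CPM in control cells, and in vehicle 341 ± 7.69 CPM in siNFYA and 277 ± 3.09 CPM in control cells (SD, n = 3 each). The R1881 effect on IARS differed in the same way, at -0.26 (edgeR, adjusted p = 0.00674), with 454 ± 9.93 CPM in siNFYA and 467 ± 16.3 CPM in control cells in R1881, and 384 ± 3.38 CPM in siNFYA and 331 ± 2.59 CPM in control cells in vehicle. For both genes the siNFYA and control libraries overlapped in R1881 and stood apart in vehicle.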

How the results depend on the processing

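No paired analysis was possible because no number in the labels is shared by libraries of different groups. With library totals, the mitochondrial genes passing with R1881 became 12 in control siRNA cells (6 with TMM) and 11 in siKLF5 cells (7 with TMM), and the median of all genes fell to -0.25 in control, -0.24 in siNFYA and -0.24 in siKLF5 cells. Called genes that were higher then made up 28.3%, 28.2% and 28.1%, against 51.1%, 50.1% and 51.9% with TMM. Directions reversed under library totals for FARSB (-0.022) and EARS2 (-0.045; -0.023 with either TPM pseudocount) in control cells. In siNFYA cells they reversed for EPRS (-0.068; -0.090 on TPM) and IARS2 (-0.089; -0.033 on TPM), and in siKLF5 cells for EPRS (-0.068; -0.078 and -0.079 on TPM with pseudocounts 1 and 0.5) and HARS (-0.065; -0.024 on TPM). With either limma fit, the genes passing with siNFYA in vehicle became 3 of the cytosolic (8 with edgeR) and 0 of the mitochondrial set, and 0 cytosolic genes passed with siNFYA in R1881, with siKLF5 in either treatment and in the siNFYA interaction. DESeq2 gave 0 mitochondrial genes with siNFYA in vehicle, 0 cytosolic genes with siNFYA in R1881 and 1 with siKLF5 in vehicle. Without the filter these last 2 counts were 0 and 1. With the compared groups alone they were 2 and 1, and siNFYA in vehicle gave 2 mitochondrial genes. The cause was not tested.

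Leaving out 1 library at a time, R1881 in control cells gave 16 to 16 cytosolic and 6 to 8 mitochondrial genes passing, in siNFYA cells 17 to 19 and 8 to 10, and in siKLF5 cells 16 to 17 and 6 to 8. The siNFYA contrast gave 6 to 8 and 1 to 2 in vehicle and 0 to 1 cytosolic in R1881, and the siKLF5 contrast 1 to 2 in vehicle and 1 to 1 in R1881. The siNFYA interaction gave 1 to 3. A fit without a siKLF5 vehicle library leaves 1 there, which is assumed to vary like the other groups. FARS2 and PARS2 had the lowest CPM and the widest SE in control R1881 against control vehicle.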
